A study of Mus musculus with 12 samples.

Results

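The expression of 36 genes of bile acid synthesis, transport and control was measured by RNA-seq in livers of Apoe-/-AhR-/- and Apoe-/- mice. The genes were taken by symbol from the deposited count table of 27304 genes, as a list chosen with earlier results of these data known. The list holds the enzymes of bile acid synthesis and conjugation and the carriers of the basolateral (blood-facing) and canalicular (bile-facing) membranes. It also holds the bile acid receptor FXR and its partners in feedback control. All 36 had a row in the table, and 34 of them passed the low-count filter, which kept 13641 genes. There were 4 groups of 3 livers each: Apoe-/-AhR-/- males, Apoe-/- males, Apoe-/-AhR-/- females and Apoe-/- females. Every mouse, the Apoe-/- comparison mice included, lacked apolipoprotein E per the labels, a protein that carries lipids in the blood. The Apoe-/-AhR-/- mice also lacked the aryl hydrocarbon receptor, a transcription factor that is activated by small molecules. All mice ate a diet labelled HFD for 12 weeks, and the livers were taken after a flush with buffered saline. The strain, the ages, the composition of the diet and the kind of Ahr allele are each not given in the sources used here, and nothing in the labels ties livers of different groups to a common litter or day.

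Bile acids are made from cholesterol in hepatocytes. The classic route begins with hydroxylation of the sterol ring by CYP7A1, and alternative routes begin on the side chain. The products are shortened in peroxisomes, joined to taurine or glycine, and pumped into bile. Bile acids that return in portal blood are taken up again by carriers of the basolateral membrane. They also activate FXR, which induces the export pump and the repressor SHP and so restrains synthesis, together with a hormone signal from the gut that acts through FGFR4 and beta-klotho.

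Of the 34 genes tested, 3 differed between genotypes in the comparison averaged over both sexes, and all 3 were lower in Apoe-/-AhR-/- livers. These were Cyp46a1, which encodes cholesterol 24-hydroxylase, Slc10a1, which encodes the sodium-dependent bile acid carrier NTCP, and Slco1b2, which encodes an organic anion carrier that takes up unconjugated bile acids in mouse liver. For each of the 3 genes the 6 Apoe-/-AhR-/- livers lay below all 6 Apoe-/- livers. A gene was called at an adjusted p under 0.05 by edgeR's quasi-likelihood test with Benjamini-Hochberg adjustment over all 13641 genes. By this rule 1.06% of all tested genes were called in either direction and 0.528% were called as lower, against 3 of 34 bile acid genes (8.82%). Because the list was chosen with earlier results of these data known, these shares are a description and do not test for an excess. The other 31 tested genes had no call. Over all 34 the log2 difference, Apoe-/-AhR-/- minus Apoe-/-, was negative in 22 and positive in 12, with a median of -0.29, and 9 of the 22 turned positive with scaling by library totals alone. Over all tested genes it was negative in 45.8% with a median of 0.04.

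The promoters of the 3 called genes, and that of the export pump gene Abcb11 as a bile acid transporter without a call, are shown because they let the genes that fell be set beside a gene of the same transport route. They are the 300 bases from 250 before to 50 after a transcription start, from RefSeq on build GRCm38.p6, read 5′ to 3′ on the strand of the gene. Capitals mark matches on either strand to GCGTG, the core of the element bound by AhR with its partner ARNT, or to AGGTCA, the half-site of many nuclear receptors. Slc10a1 had 2 RefSeq starts, and the upstream one coincides with the start of the GENCODE gene model.
Cyp46a1, chr12:108334066-108334365, plus strand: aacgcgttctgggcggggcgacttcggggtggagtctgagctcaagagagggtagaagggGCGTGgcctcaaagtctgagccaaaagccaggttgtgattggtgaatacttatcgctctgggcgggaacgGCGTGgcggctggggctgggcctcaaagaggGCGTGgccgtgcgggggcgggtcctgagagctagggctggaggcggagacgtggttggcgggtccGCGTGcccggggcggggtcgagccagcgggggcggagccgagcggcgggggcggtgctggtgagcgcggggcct
Slc10a1, upstream start, chr12:80968656-80968955, minus strand: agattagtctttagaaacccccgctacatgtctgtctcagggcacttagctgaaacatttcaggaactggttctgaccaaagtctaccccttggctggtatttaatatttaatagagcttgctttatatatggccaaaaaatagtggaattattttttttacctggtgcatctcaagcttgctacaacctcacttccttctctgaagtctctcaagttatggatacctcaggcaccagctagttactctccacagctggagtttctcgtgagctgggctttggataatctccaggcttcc
Slc10a1, downstream start, chr12:80968030-80968329, minus strand: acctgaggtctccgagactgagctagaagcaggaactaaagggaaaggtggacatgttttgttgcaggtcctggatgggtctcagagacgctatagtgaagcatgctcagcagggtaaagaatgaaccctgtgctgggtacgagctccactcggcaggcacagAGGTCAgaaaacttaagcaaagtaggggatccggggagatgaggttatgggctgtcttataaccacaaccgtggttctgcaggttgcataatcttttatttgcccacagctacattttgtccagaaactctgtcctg
Slco1b2, chr6:141629268-141629567, plus strand: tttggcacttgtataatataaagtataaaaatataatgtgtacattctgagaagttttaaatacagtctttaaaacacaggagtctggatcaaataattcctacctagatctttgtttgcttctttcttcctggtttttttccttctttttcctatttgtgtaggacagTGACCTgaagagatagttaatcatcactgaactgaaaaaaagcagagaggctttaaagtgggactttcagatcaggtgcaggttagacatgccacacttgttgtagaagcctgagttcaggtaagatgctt
Abcb11, chr2:69342567-69342866, minus strand: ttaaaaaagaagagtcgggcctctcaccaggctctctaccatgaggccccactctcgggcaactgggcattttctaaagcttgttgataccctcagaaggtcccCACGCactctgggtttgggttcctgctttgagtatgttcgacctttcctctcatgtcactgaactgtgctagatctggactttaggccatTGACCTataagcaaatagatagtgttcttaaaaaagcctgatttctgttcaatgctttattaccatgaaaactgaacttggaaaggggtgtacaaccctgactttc

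The Cyp46a1 window held 4 copies of GCGTG, at 190, 120, 89 and 24 bases before the start, all on the strand of the gene. A gene was counted where any of its RefSeq windows of this length held the motif, and the 27 bile acid genes with an entry had 36 windows among them. At least 4 copies were found for 420 of 27025 genes (1.55%), and Cyp46a1 was the only one of the 27 with as many. At least 1 copy was found for 12 of the 27 genes (44.4%), against 35.15% of all genes, and in 33.3% of their windows, against 32.39% of all windows. AGGTCA was found for 13 of 27 genes (48.1%) against 18.13% of all genes, and in 38.9% of their windows against 16.26% of all. It lay 87 bases before the downstream start of Slc10a1, 81 bases before the start of Slco1b2 and 56 bases before that of Abcb11, which also held 1 GCGTG at 146 bases. The longer element TCAAGGTCA, bound by LRH-1 and containing AGGTCA, was found for 0.47% of all genes and for 0 of the 27. The shares over all genes are not matched for G and C content, in which the printed Cyp46a1 window is rich. A match is a run of letters and not a shown binding site.

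The libraries and the labels were examined first. The 12 libraries held between 9794253 and 18924880 counts. Levels are given as CPM, which are counts scaled to a common library total with TMM factors, and a single count stood for 0.0395 to 0.109 CPM. Cyp1a2, a target of AhR, averaged 123 CPM in Apoe-/-AhR-/- males against 946 CPM in Apoe-/- males, and 65.8 CPM in Apoe-/-AhR-/- females against 591 CPM in Apoe-/- females, a log2 difference of -3.05 ± 0.36 (SE, adjusted p = 0.00663). Ahr counts did not differ by the test (0.13 ± 0.18, adjusted p = 0.8), and without the allele it is not known whether the deposited counts cover a deleted part. Mitochondrially encoded genes took 30.45% to 52.72% of the counts in Apoe-/-AhR-/- males, against 46.66% to 57.3% in Apoe-/- males, and 39.82% to 59.77% in Apoe-/-AhR-/- females, against 56.5% to 69.78% in Apoe-/- females. The TMM factors ran from 0.944 to 1.53 in Apoe-/-AhR-/- livers and from 0.579 to 1.11 in Apoe-/- livers. With the mitochondrial genes taken out before scaling, the 3 called genes were called again, at -2.30 for Cyp46a1, -1.15 for Slc10a1 and -1.32 for Slco1b2. Hepatocyte transcripts were abundant in every group, and 11 of 12 hepatocyte markers had positive averaged differences, with a median of 0.33 and 0 calls. The 12 hepatocyte markers summed to 32460 to 56610 CPM in Apoe-/-AhR-/- males, against 27780 to 36330 in Apoe-/- males, and to 34230 to 92980 CPM in Apoe-/-AhR-/- females, against 28220 to 34630 in Apoe-/- females. The 8 stellate cell markers all had positive averaged differences, with a median of 0.52 and 1 call, that of Rgs5 (1.12, adjusted p = 0.02), named after its value was seen. Their sum was 300.8 to 542.8 CPM in Apoe-/-AhR-/- males, against 248.9 to 537.3 in Apoe-/- males, and 466.2 to 1171 CPM in Apoe-/-AhR-/- females, against 317.6 to 490.3 in Apoe-/- females, and the part of these cells in the results below was not tested. Replicate 1 of the Apoe-/-AhR-/- females and replicate 1 of the Apoe-/- males held transcripts of neurons and glia. Their marker sums were 581.5 and 367.5 CPM. Sums in the other 10 libraries were 47.6 to 71.8 CPM in Apoe-/-AhR-/- and 83.7 to 108.9 CPM in Apoe-/- livers, without overlap. Without those 2 libraries, Syt1 (-1.4, adjusted p = 0.0134) and Slc1a2 (-0.86, adjusted p = 0.0319) of these markers were called lower, named after their values were seen. Syn1, Map2, Mbp and Aqp4 were positive without a call. Replicate 1 of the Apoe-/-AhR-/- females also held the highest hepatocyte and stellate marker sums, 92980 and 1171 CPM. In the other 2 of its group these were 34230 and 43750 CPM, and 477.4 and 466.2 CPM. The same female library correlated with the other 2 of its group at no more than 0.811 over genes. Every pair of replicates without it reached at least 0.938. That library lay more than 2-fold outside the range of its group in 12 of the 34 bile acid genes, against 34.2% of all genes tested. The averaged difference without these 2 libraries is given below for the 3 called genes, for the gene that gains a call without them, for the 4 whose sign turns and for some others in which the female library stands apart. In whole liver, fewer cells of a type and less RNA per cell cannot be told apart.

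**Figure D1:**
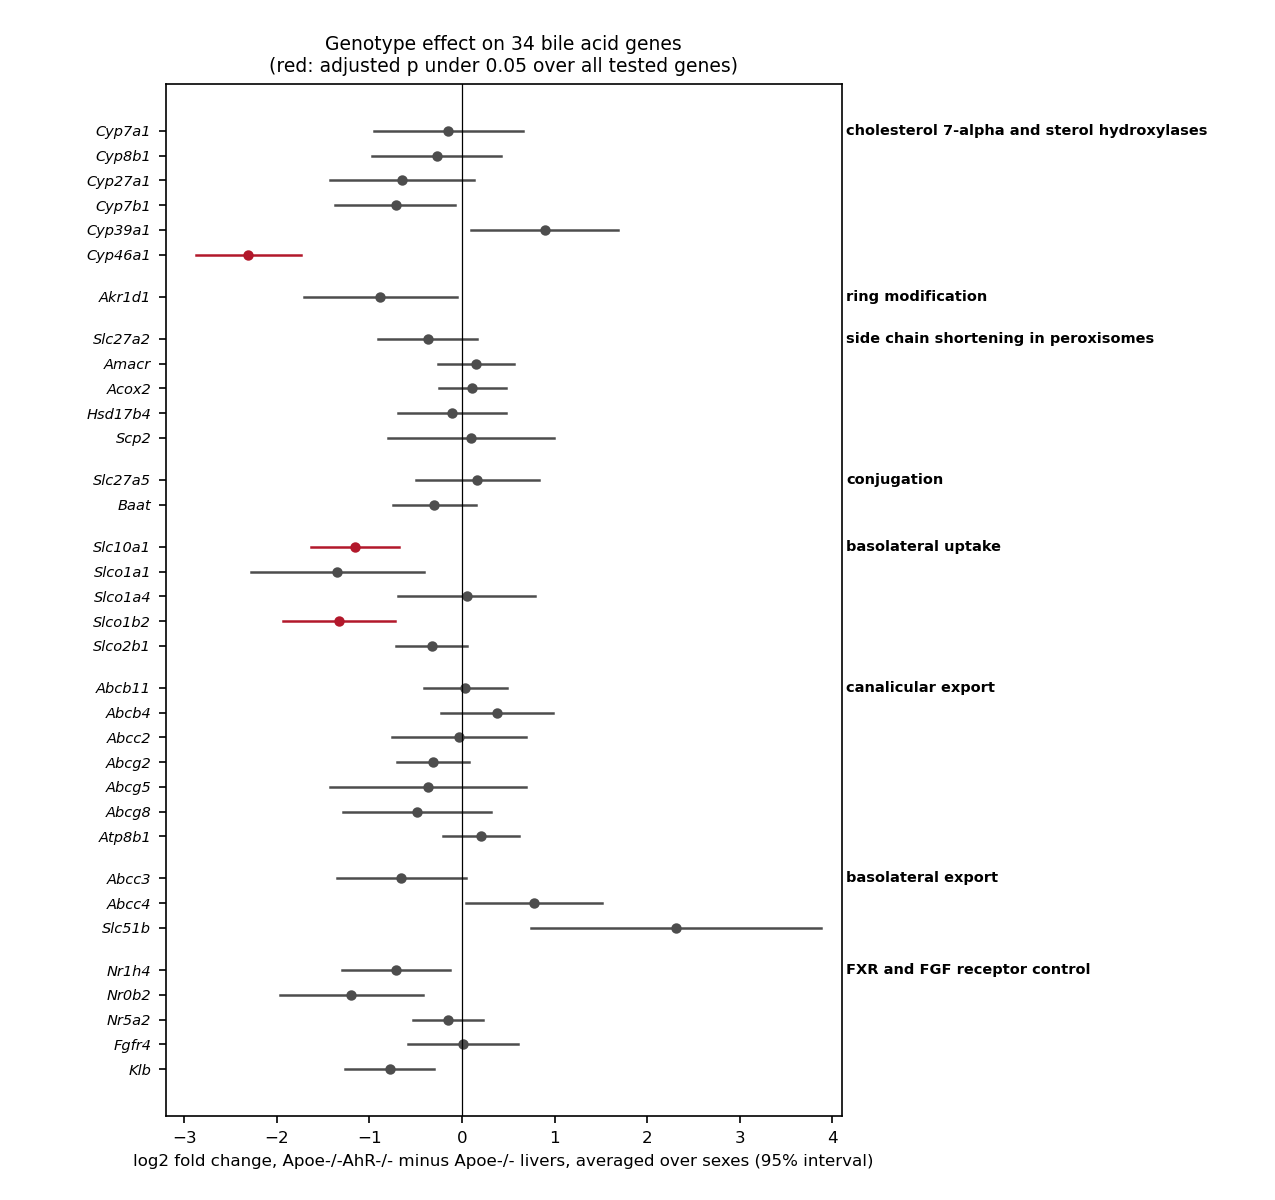
Log2 fold change of each of the 34 tested bile acid genes, Apoe-/-AhR-/- minus Apoe-/- livers averaged over sexes (x axis, 95% interval), grouped by role (n = 6 livers per genotype). The 3 genes in red, Cyp46a1, Slc10a1 and Slco1b2, passed the test over all 13641 genes, and all 3 lie left of 0.

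Cyp46a1 (ENSMUSG00000021259, chromosome 12, 108334381 to 108362234, plus strand, GRCm38) turns cholesterol into 24-hydroxycholesterol and is known mainly from neurons of the brain. It fell in Apoe-/-AhR-/- livers more than any other of the bile acid genes tested. It had 1.62, 2.40 and 1.07 CPM in Apoe-/-AhR-/- males, against 7.998, 12.6 and 14.8 CPM in Apoe-/- males. It had 5.24, 4.69 and 5.80 CPM in Apoe-/-AhR-/- females, against 24.4, 11.02 and 18.6 CPM in Apoe-/- females. The highest Apoe-/-AhR-/- liver thus lay under the lowest Apoe-/- liver in both sexes, with no overlap over all 12. The counts behind these values were 27 to 105 per Apoe-/-AhR-/- library and 95 to 354 per Apoe-/- library. The averaged log2 difference was -2.31 ± 0.26 (SE, n = 6 per genotype, adjusted p = 0.00578), the second smallest p of 13641 genes. It remained called when any 1 of the 12 libraries was left out, with adjusted p from 0.00077 to 0.0377. With both libraries that held neural transcripts left out, it was -2.41 (adjusted p = 0.000774). Among the libraries then left, the neural marker sums were also lower in Apoe-/-AhR-/- livers, and their part in this difference was not tested. In males alone the difference was -2.83 ± 0.38 (adjusted p = 0.0235) and in females alone -1.78 ± 0.36 (adjusted p = 0.079). The male call was kept in 5 of the 12 fits that left out 1 library. It was lost without replicate 1 or 3 of the Apoe-/-AhR-/- males, replicate 2 of the Apoe-/-AhR-/- females, replicate 2 or 3 of the Apoe-/- males, or replicate 1 or 3 of the Apoe-/- females. Over these 12 fits the male difference ran from -3.13 to -2.57 and its adjusted p from 0.0033 to 0.31. Cyp46a1 lies 72.8 Mb from Ahr on the same chromosome, and linkage to the modified locus and loss of the receptor cannot be told apart for it from these data.

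The NTCP gene Slc10a1 (ENSMUSG00000021135, chromosome 12, 80953183 to 80968705, minus strand) encodes the main carrier that brings conjugated bile acids from blood into hepatocytes. It had 27.5, 47.2 and 36.4 CPM in Apoe-/-AhR-/- males, against 70.7, 81.9 and 64.6 CPM in Apoe-/- males. It had 34.6, 21.2 and 44.8 CPM in Apoe-/-AhR-/- females, against 71.7, 94.7 and 90.2 CPM in Apoe-/- females. The genotypes did not overlap in either sex. The averaged log2 difference was -1.16 ± 0.22 (SE, adjusted p = 0.0275), a level 0.448 times that of the Apoe-/- livers. Within 1 sex it was -0.97 ± 0.31 in males (adjusted p = 0.525) and -1.35 ± 0.31 in females (adjusted p = 0.112). With both libraries that held neural transcripts left out, the averaged difference was -1.17 (adjusted p = 0.0159). Of the 12 fits that left out 1 library, the call was kept in 3, those without replicate 2 of the Apoe-/-AhR-/- males, replicate 1 of the Apoe-/-AhR-/- females or replicate 3 of the Apoe-/-AhR-/- females. In the other 9 the difference lay within the full range of -1.30 to -1.04, with adjusted p of up to 0.114. Slc10a1 also lies on chromosome 12, 45.42 Mb from Ahr, so the same limit on linkage holds.

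Slco1b2 (ENSMUSG00000030236, chromosome 6, 141629518 to 141686646, plus strand) had the highest level per kilobase of exon among the 5 uptake carriers in all 4 groups. It had 269, 446 and 199.8 CPM in Apoe-/-AhR-/- males, against 735, 669 and 548 CPM in Apoe-/- males. It had 290.3, 160.3 and 259.7 CPM in Apoe-/-AhR-/- females, against 674, 464 and 957 CPM in Apoe-/- females. Here too the genotypes did not overlap in either sex. The averaged log2 difference was -1.33 ± 0.28 (SE, adjusted p = 0.041), with -1.09 ± 0.39 in males (adjusted p = 0.662) and -1.56 ± 0.40 in females (adjusted p = 0.138). The call was kept in 2 of the 12 fits that left out 1 library, those without replicate 2 of the Apoe-/-AhR-/- males or replicate 1 of the Apoe-/-AhR-/- females. With both libraries that held neural transcripts left out it was -1.35 (adjusted p = 0.023). Over the 12 fits the difference ran from -1.52 to -1.18 and its adjusted p from 0.0106 to 0.146. Scaling by library totals alone moved the median of all genes to 0.53 on the log2 scale. Under it the differences of Slc10a1 and Slco1b2 were -0.69 (adjusted p = 0.0759) and -0.91 (adjusted p = 0.0629), neither past the threshold. Relative to the shifted median both remained more than 1 log2 unit lower.

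**Figure D2:**
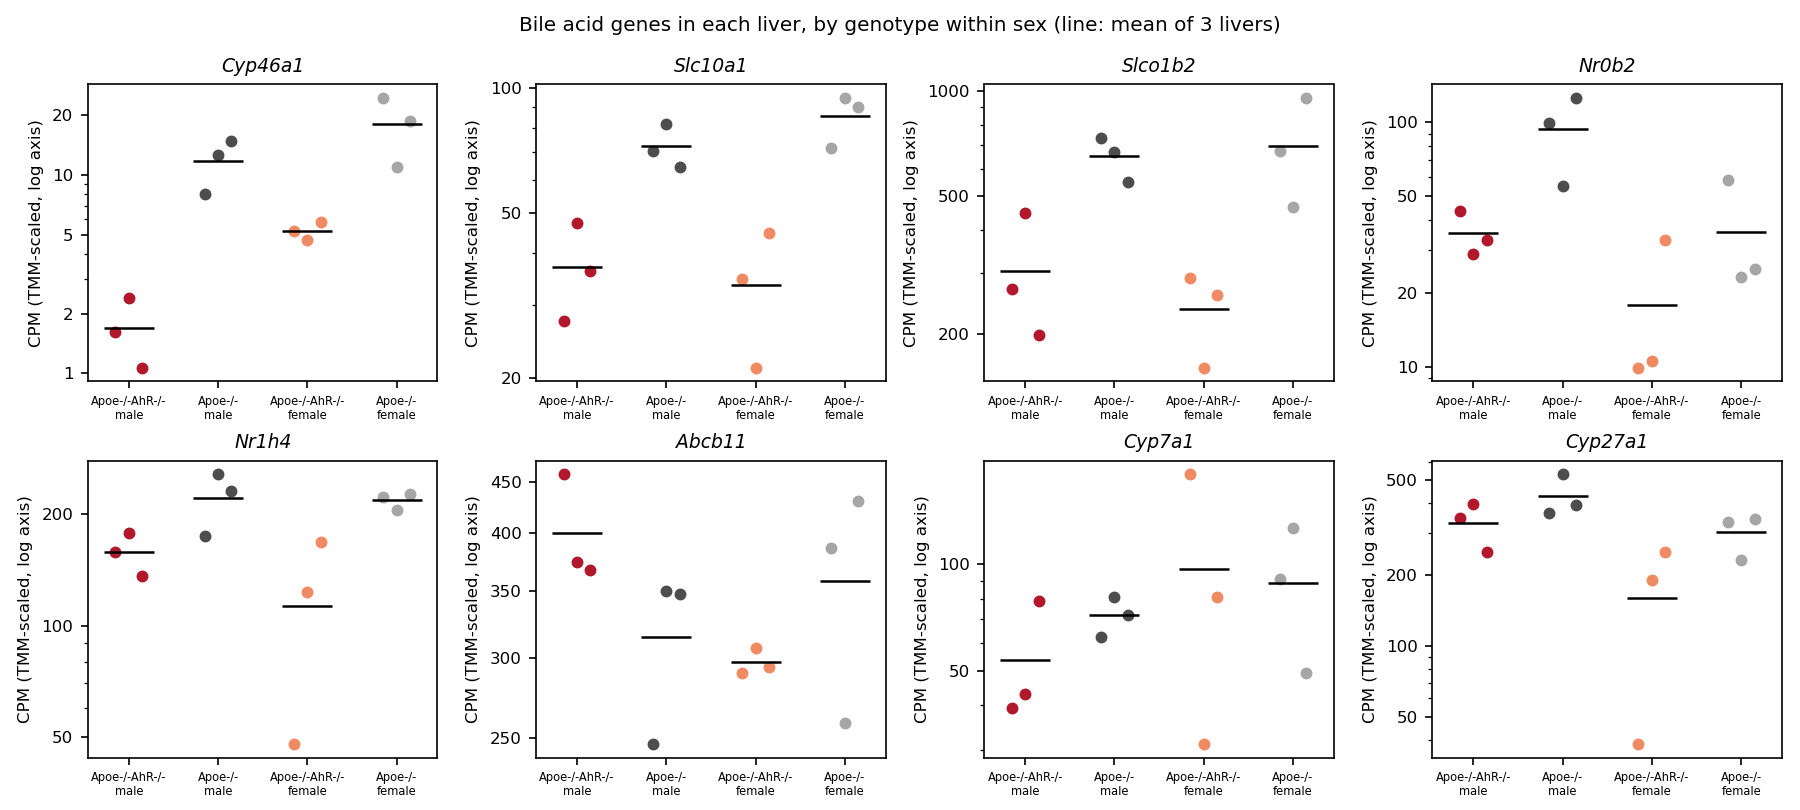
Scaled CPM (y axis, log scale) of 8 bile acid genes in each of the 12 livers, by genotype within sex, with a line at the mean of 3 livers. The 6 Apoe-/-AhR-/- livers lie below all 6 Apoe-/- livers for Cyp46a1, Slc10a1 and Slco1b2, and the genotypes overlap over the 12 livers for the other 5 genes.

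The other 3 uptake carriers had no call by edgeR. Slco1a1, a carrier of bile acids and steroid conjugates that is known to be higher in male mouse liver, had a log2 difference of -1.35 ± 0.43 (adjusted p = 0.168). Its values ran from 28.01 to 121.2 CPM in Apoe-/-AhR-/- males against 110.0 to 142.8 CPM in Apoe-/- males, and from 3.77 to 7.35 CPM in Apoe-/-AhR-/- females against 6.33 to 31.4 CPM in Apoe-/- females. The overlap in males came from replicate 2 of the Apoe-/-AhR-/- males alone, and without that library the difference passed the threshold at -1.87 (adjusted p = 0.0296), as it did by DESeq2 with all 12 (adjusted p = 0.0479). No other fit that left out 1 library took it past the threshold. Slco2b1, a broad organic anion carrier, was 60.6 to 79.4 CPM in Apoe-/-AhR-/- males against 70.7 to 89.1 CPM in Apoe-/- males. It was 45.0 to 71.4 CPM in Apoe-/-AhR-/- females against 80.3 to 84.8 CPM in Apoe-/- females, with an averaged difference of -0.33 ± 0.18. Slco1a4, a close relative of Slco1a1 on the same stretch of chromosome 6, had a difference of 0.05 ± 0.34. The median log2 difference over the 5 uptake carriers was -1.16, with 4 of 5 negative. Reads could be shared among the related Slco1a and Slco1b genes if the counting allowed it, and the handling of multi-mapping reads is not given in the sources used here.

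Canalicular export was represented by the transcripts of 7 genes, none of which was called in the genotype comparisons. The bile salt export pump gene Abcb11 had 458, 374.5 and 368 CPM in Apoe-/-AhR-/- males, against 246, 350.3 and 348 CPM in Apoe-/- males. It had 290.4, 307 and 294 CPM in Apoe-/-AhR-/- females, against 387, 259 and 431 CPM in Apoe-/- females. The Apoe-/-AhR-/- males lay above the Apoe-/- males without overlap, and the females overlapped. The averaged log2 difference was 0.04 ± 0.21, with a 95% interval of -0.41 to 0.48, so a fall as large as the -1.16 of Slc10a1 lay outside the interval. It was -0.01 without the 2 neural libraries. Abcb4, the phosphatidylcholine floppase, had a difference of 0.38 ± 0.28 and Atp8b1, an aminophospholipid flippase, 0.20 ± 0.19. Abcc2, the pump of bilirubin and bile acid conjugates, had -0.03 ± 0.33, or 0.15 without the 2 neural libraries. The sterol half-transporters Abcg5 and Abcg8 had -0.37 ± 0.49 and -0.48 ± 0.37. Abcg5 and Abcg8 were lowest in replicate 1 of the Apoe-/-AhR-/- females, the library with neural transcripts, at 19.5 and 10.8 CPM against 190.8 and 37.0 CPM or more in the other 2 females of that group. Without both neural libraries their differences were -0.20 and -0.32. Abcg2, an exporter of urate and xenobiotic conjugates, had a difference of -0.32 ± 0.18. It was lower without overlap in Apoe-/-AhR-/- males alone, at 25.6 to 37.7 CPM against 46.1 to 47.2 CPM in Apoe-/- males.

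The ratio of uptake carrier transcripts to export pump transcripts was taken within each library, where the scaling cancels. The ratio of Slc10a1 to Abcb11 counts was 0.06, 0.126 and 0.0989 in Apoe-/-AhR-/- males, against 0.287, 0.234 and 0.186 in Apoe-/- males. It was 0.119, 0.0689 and 0.153 in Apoe-/-AhR-/- females, against 0.185, 0.366 and 0.209 in Apoe-/- females. The ratio of Slco1b2 to Abcb11 counts was 0.588, 1.19 and 0.544 in Apoe-/-AhR-/- males, against 2.99, 1.91 and 1.57 in Apoe-/- males. In females it was 1.0, 0.522 and 0.884 for Apoe-/-AhR-/- and 1.74, 1.79 and 2.22 for Apoe-/-. Both ratios were lower in all 6 Apoe-/-AhR-/- livers than in any Apoe-/- liver. They are set out as a description, since they rest on the same counts as the tests above. Both carriers were already called without overlap and Abcb11 had no call, so this separation was largely set in advance. The ratio of Slco1b2 to Slco2b1, another uptake carrier, did not overlap within a sex. Across sexes it did, at 5.62 in replicate 2 of the Apoe-/-AhR-/- males and 5.47 in replicate 2 of the Apoe-/- females. A ratio of counts does not compare the levels of the 2 genes, and carrier protein and transport were not measured.

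**Figure D3:**
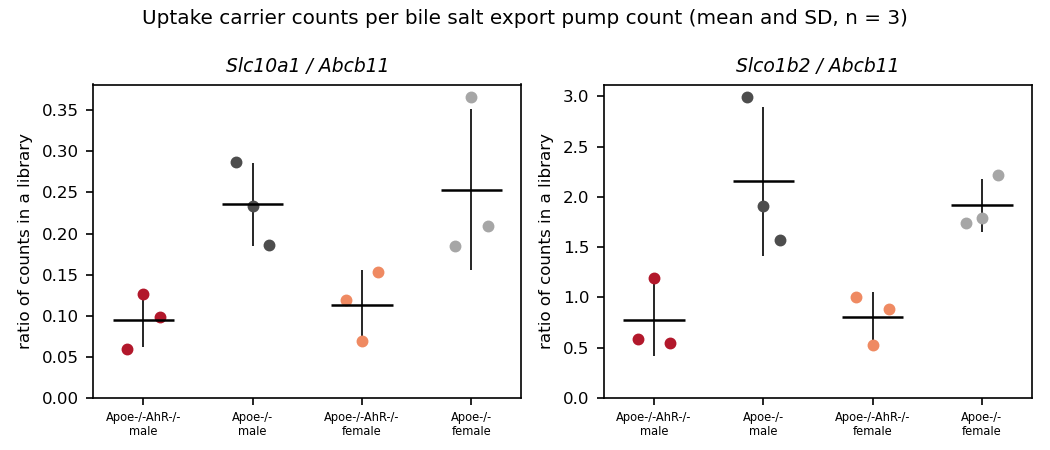
Ratio of Slc10a1 and of Slco1b2 counts to Abcb11 counts in each library (y axis from 0), with mean and SD of 3 livers, by genotype within sex. The Slc10a1 ratio is at most 0.153 in Apoe-/-AhR-/- livers and at least 0.185 in Apoe-/- livers, and the Slco1b2 ratio is at most 1.19 and at least 1.57.

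Transcripts of the basolateral exporters were at low levels apart from Abcc3. Abcc3, which exports bile acid conjugates back to blood, was 57.1 to 100.5 CPM in Apoe-/-AhR-/- males against 121.6 to 146.9 CPM in Apoe-/- males, without overlap. It was 36.8 to 156.0 CPM in Apoe-/-AhR-/- females against 101.6 to 204.9 CPM in Apoe-/- females, and the averaged difference was -0.66 ± 0.32 (adjusted p = 0.354). Abcc4, a second exporter of the same membrane, had 0.853 to 5.71 CPM over the 6 Apoe-/-AhR-/- livers against 1.01 to 3.60 CPM over the 6 Apoe-/- livers, a difference of 0.78 ± 0.34 (adjusted p = 0.297). Slc51b and Slc51a encode the 2 subunits of the exporter OST. Slc51b had 16, 0 and 22 counts in Apoe-/-AhR-/- males against 1, 3 and 4 in Apoe-/- males, and 37, 20 and 29 counts in Apoe-/-AhR-/- females against 7, 1 and 0 in Apoe-/- females. The females did not overlap, and its difference of 2.31 ± 0.72 was not past the threshold (adjusted p = 0.16). It passed the low-count filter only through the groups where it was higher. Positive averaged differences were found for 7396 of the 13641 genes tested, for 11 of the 12 hepatocyte markers and for all 8 stellate cell markers. The 9 of 10 cholangiocyte markers that were tested also had positive averaged differences, 0 of them called. Their sum was 74.5 to 101.8 CPM in Apoe-/-AhR-/- males against 53.8 to 90.8 CPM in Apoe-/- males. In females the sum was 74.1 to 273 CPM in Apoe-/-AhR-/- against 51.2 to 143.8 CPM in Apoe-/- livers. The 273 CPM was that of the library with neural transcripts, and the other 2 Apoe-/-AhR-/- females had 118.4 and 74.1 CPM. The part of the cholangiocyte markers in the Slc51b values was not tested. Slc51a had 29 counts over all 12 libraries and was not tested. Scaling by library totals alone took Slc51b and Abcc4 past the threshold as higher, at 2.83 and 1.38, under a median shift of all genes of 0.53.

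Synthesis was represented by the transcripts of 6 sterol hydroxylases and 2 enzymes of ring modification, and Cyp46a1 was the one gene called among them. Cyp7a1, the rate-limiting enzyme of the classic route, had 39.3, 43.0 and 78.7 CPM in Apoe-/-AhR-/- males, against 62.6, 80.8 and 72.1 CPM in Apoe-/- males. It had 179, 31.0 and 81.0 CPM in Apoe-/-AhR-/- females, against 91.0, 126 and 49.3 CPM in Apoe-/- females. The groups overlapped in both sexes and the difference was -0.15 ± 0.37, which changed sign to 0.40 with scaling by library totals alone and was -0.57 without both libraries that held neural transcripts. Cyp8b1, the 12-alpha-hydroxylase that sets the share of cholic acid, had 24.0, 68.9 and 62.1 CPM in Apoe-/-AhR-/- males, against 75.6, 104 and 92.8 CPM in Apoe-/- males. It had 42.3, 14.4 and 44.8 CPM in Apoe-/-AhR-/- females, against 30.7, 35.3 and 18.4 CPM in Apoe-/- females. The males did not overlap and the females did, and the averaged difference was -0.27 ± 0.32, or 0.18 with scaling by library totals alone. Its interaction with sex was -1.08 ± 0.65 (adjusted p = 0.999).

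Cyp27a1, the mitochondrial side-chain hydroxylase of the acidic route, had 347, 397 and 248 CPM in Apoe-/-AhR-/- males, against 365, 529 and 393 CPM in Apoe-/- males. It had 38.4, 189.9 and 249 CPM in Apoe-/-AhR-/- females, against 335, 231 and 342 CPM in Apoe-/- females. The lowest value was that of the female library with neural transcripts, the groups overlapped in both sexes, and the difference was -0.65 ± 0.36 (adjusted p = 0.42), or -0.46 without both neural libraries. Cyp7b1, the oxysterol 7-alpha-hydroxylase, was at 8.68 to 38.9 CPM in Apoe-/-AhR-/- males against 24.9 to 30.1 CPM in Apoe-/- males. It was at 1.44 to 1.99 CPM in Apoe-/-AhR-/- females against 3.33 to 4.35 CPM in Apoe-/- females, without overlap. Its averaged difference was -0.72 ± 0.30 (adjusted p = 0.27), and without replicate 2 of the Apoe-/-AhR-/- males, the highest of that group, it passed at -1.06 (adjusted p = 0.0377). In the other fits that left out 1 library it did not pass, with adjusted p of up to 0.535. Cyp39a1, a hydroxylase of 24-hydroxycholesterol and thus a step after Cyp46a1, was at 2.02 to 2.72 CPM in Apoe-/-AhR-/- males, against 0.387 to 0.956 CPM in Apoe-/- males. It was at 1.14 to 4.04 CPM in Apoe-/-AhR-/- females, against 1.31 to 2.42 CPM in Apoe-/- females. Its averaged difference was 0.90 ± 0.37 (adjusted p = 0.264), or 0.54 without both neural libraries, and males alone did not overlap. Akr1d1, the steroid 5-beta-reductase, was at 21.8 to 36 CPM in Apoe-/-AhR-/- males against 52.9 to 63.6 CPM in Apoe-/- males, without overlap. In females it was at 15.8 to 101.9 CPM in Apoe-/-AhR-/- and 51.6 to 132.0 CPM in Apoe-/- livers. Its difference was -0.88 ± 0.38 (adjusted p = 0.295). With both libraries that held neural transcripts left out, it was -1.35 ± 0.29 and passed the threshold (adjusted p = 0.0283), and so it did at -1.38 without the female one of them alone. Leaving out any other single library gave no call. Hsd3b7, the 3-beta-hydroxysteroid dehydrogenase of the pathway, had 12 counts over all 12 libraries and was not tested. In the GENCODE annotation 99.2% of its exonic bases are also exons of other genes.

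The genes of the peroxisomal steps and conjugation had no call. Slc27a2, which activates the side chain as a coenzyme A ester, was the only one of these 7 genes that was lower without overlap, and only in males, at 701 to 949 CPM in Apoe-/-AhR-/- and 1206 to 1537 CPM in Apoe-/- livers. Its averaged difference was -0.37 ± 0.25 (adjusted p = 0.516). Acox2, the branched-chain oxidase that opens side-chain shortening, was higher without overlap in males, at 76.7 to 88.0 CPM in Apoe-/-AhR-/- and 58.1 to 66.7 CPM in Apoe-/- livers, with an averaged difference of 0.11 ± 0.17. The racemase Amacr had a difference of 0.15 ± 0.19, the bifunctional enzyme Hsd17b4 -0.11 ± 0.27 and the thiolase and carrier Scp2 0.09 ± 0.41. Scp2 was at 1891 CPM in the female library with neural transcripts and at 262 and 395 CPM in the other 2 Apoe-/-AhR-/- females. Without both neural libraries its difference was -0.55 ± 0.24 (adjusted p = 0.214). Slc27a5, the bile acid coenzyme A ligase, had a difference of 0.17 ± 0.31, or -0.15 without both neural libraries, and Baat, which joins bile acids to amino acids, -0.30 ± 0.21.

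FXR and its partners had no call by edgeR, with 4 of 5 genes negative and a median log2 difference of -0.71. Nr1h4, which encodes FXR, had 158, 178 and 136 CPM in Apoe-/-AhR-/- males, against 175, 256 and 231 CPM in Apoe-/- males. It had 47.9, 123 and 168 CPM in Apoe-/-AhR-/- females, against 222, 205 and 226 CPM in Apoe-/- females. The females did not overlap and the males overlapped at 1 liver of each genotype. The lowest value was that of the female library with neural transcripts. The Nr1h4 difference was -0.71 ± 0.27 (adjusted p = 0.228), or -0.59 without both neural libraries (adjusted p = 0.0929). Nr0b2, which encodes SHP, an FXR target and a repressor of Cyp7a1, had 43.6, 29.1 and 32.9 CPM in Apoe-/-AhR-/- males, against 99.9, 55.1 and 126 CPM in Apoe-/- males. It had 9.92, 10.6 and 33.1 CPM in Apoe-/-AhR-/- females, against 58.3, 23.2 and 25.1 CPM in Apoe-/- females. The males did not overlap, and among the females replicate 3 of the Apoe-/-AhR-/- group lay above 2 of the Apoe-/- livers. The difference was -1.20 ± 0.36 and missed the threshold by edgeR (adjusted p = 0.145), and it passed by DESeq2 (adjusted p = 0.0323). It also passed when that replicate, which lay against the difference, was left out, at -1.61 (adjusted p = 0.0476). This was 1 of the 12 fits that left out 1 library, and in the others it did not pass, with adjusted p of up to 0.353. Klb, the beta-klotho co-receptor, was at 3.85 to 5.47 CPM in Apoe-/-AhR-/- females against 9.04 to 9.49 CPM in Apoe-/- females, without overlap. In males it was at 2.96 to 6.44 CPM in Apoe-/-AhR-/- and 5.64 to 7.46 CPM in Apoe-/- livers. Its averaged difference was -0.78 ± 0.22 (adjusted p = 0.119), and without replicate 2 of the Apoe-/-AhR-/- males it passed at -1.001 (adjusted p = 0.0182), as it did by DESeq2 with all 12 libraries (adjusted p = 0.0375). That replicate was the highest of its group, and no other fit that left out 1 library gave a call. The receptor Fgfr4 had a difference of 0.01 ± 0.28 and Nr5a2, which encodes LRH-1, an activator of Cyp7a1 and Cyp8b1, -0.15 ± 0.18.

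**Figure D4:**
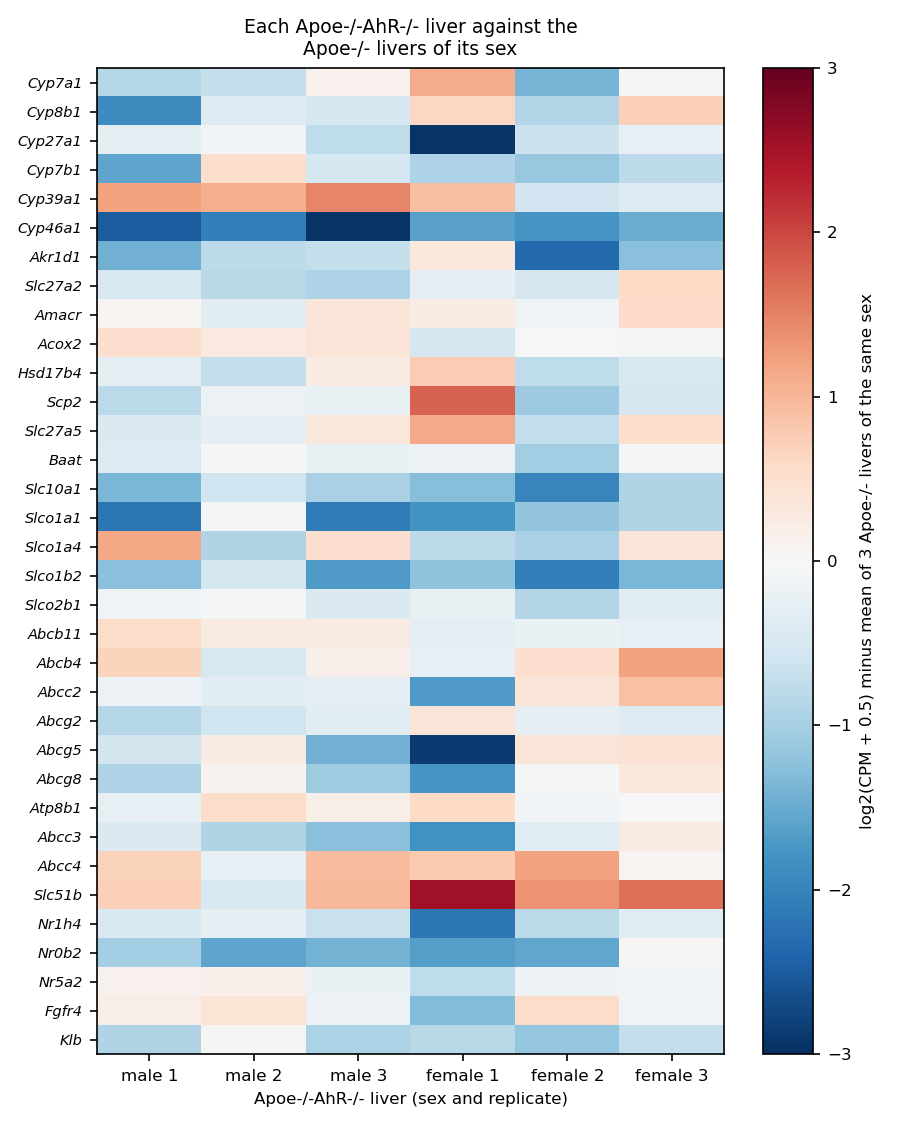
Each of the 6 Apoe-/-AhR-/- livers (columns) against the mean of the 3 Apoe-/- livers of its sex, as the difference of log2(CPM + 0.5), for the 34 tested genes (rows). Cyp46a1, Slc10a1 and Slco1b2 are blue (below 0) in all 6 columns. Cyp27a1, Baat, Slco1a1, Slco2b1 and Nr1h4, which had no genotype call, are also below 0 in all 6, in some columns only slightly. Female 1, the library with neural transcripts, stands apart in genes such as Cyp27a1, Scp2 and Abcg5.

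The 2 sexes were then taken apart. In males the test called 1 of the 34 genes, Cyp46a1, where 0.0367% of all genes were called. In females it called 0 of 34 by edgeR, where 0.161% of all genes were called, while 8 had an unadjusted p under 0.05, as did 14.4% of all genes. DESeq2 called 3 in females, Cyp46a1, Slc10a1 and Slco1b2, and limma-voom called 0. The interaction of genotype with sex was called for 0 of 34 genes by edgeR and by DESeq2, where 0.00733% of all genes were called by edgeR. At an unadjusted p under 0.05 there was 1 of the 34, against 4.6% of all genes. Differences between the sexes in the genotype effect were therefore not shown for any of these genes. By the separate count of genes whose 3 Apoe-/-AhR-/- livers all lay below the 3 Apoe-/- livers, males had 9 of 34, where 7.34% of all genes did so, and females had 7 of 34, where 9.86% did so. The 9 in males were Cyp8b1, Cyp46a1, Akr1d1, Slc27a2, Slc10a1, Slco1b2, Abcg2, Abcc3 and Nr0b2. The 7 in females were Cyp7b1, Cyp46a1, Slc10a1, Slco1b2, Slco2b1, Nr1h4 and Klb. The 3 called genes were those found in both sexes, where 1.62% of all genes were. In the other direction 3 genes were higher without overlap in males (6.55% of all genes), 1 in females (9.22%) and 0 in both (1.28%).

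Sex differences within a genotype were called for Cyp7b1 and Abcg2. Cyp7b1 is known to be higher in male mouse liver. In the Apoe-/-AhR-/- genotype it had 8.68, 38.9 and 18.7 CPM in males, against 1.75, 1.44 and 1.99 CPM in females. In the Apoe-/- genotype it had 26.2, 30.1 and 24.9 CPM in males, against 4.35, 3.71 and 3.33 CPM in females. Males lay above females without overlap in both genotypes. The log2 difference, male minus female, was 3.66 ± 0.46 in Apoe-/-AhR-/- livers (adjusted p = 0.00455) and 2.83 ± 0.44 in Apoe-/- livers (adjusted p = 0.0114). The first was kept in all 12 fits that left out 1 library and the second in 7, being lost at 2.75 to 2.96 without replicate 2 or 3 of the Apoe-/- males or any 1 of the Apoe-/- females, with adjusted p of up to 0.142. In Apoe-/-AhR-/- livers Abcg2 was at 25.6, 30.6 and 37.7 CPM in males, against 23.2, 14.5 and 13.4 CPM in females, a difference of 0.88 ± 0.26 (adjusted p = 0.281). It passed at 1.17 without replicate 1 of the females, the neural library (adjusted p = 0.0216), and without both neural libraries (adjusted p = 0.0304), and by DESeq2 at 0.90 (adjusted p = 0.04). Leaving out any other single library did not bring this call. Abcg2 was at 47.1, 46.1 and 47.2 CPM in Apoe-/- males, against 16.2, 19.0 and 17.7 CPM in Apoe-/- females. That difference was 1.41 ± 0.26 and was called (adjusted p = 0.0401), though not with scaling by library totals alone, at 1.72 (adjusted p = 0.0526). It was lost without any 1 of the 6 Apoe-/- libraries or replicate 1 of the Apoe-/-AhR-/- males, with values of 1.36 to 1.47 and adjusted p of up to 0.251, and kept in the other 5 such fits. Over all genes, 0.279% were called between the sexes in Apoe-/-AhR-/- livers and 0.352% in Apoe-/- livers, against 1 and 2 of the 34 bile acid genes.

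**Figure D5:**
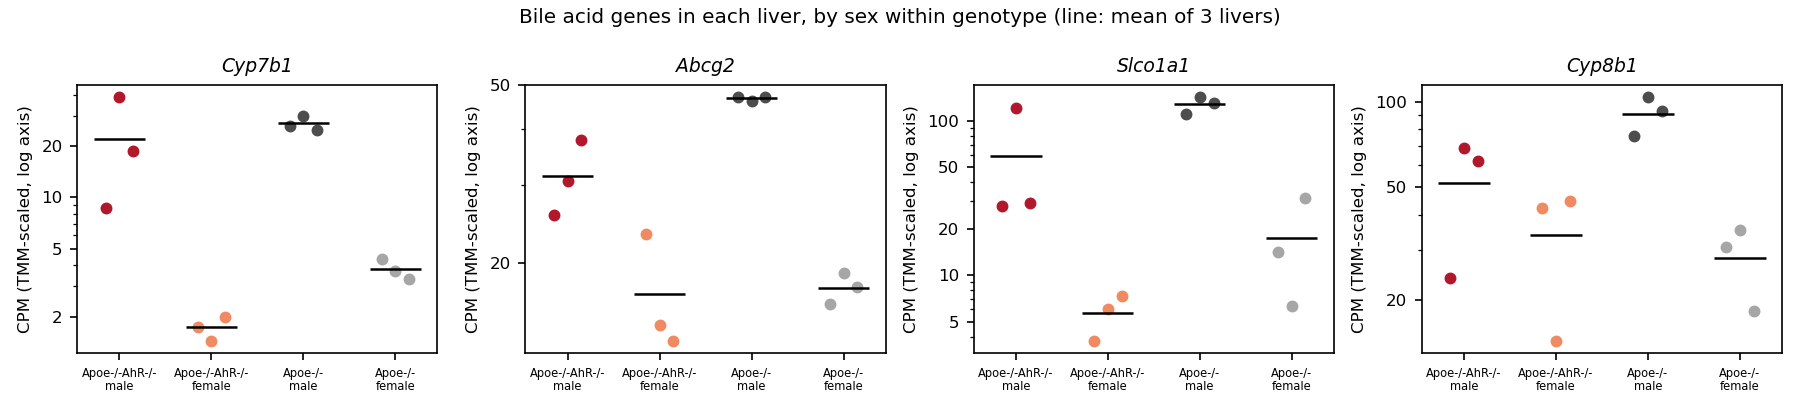
Scaled CPM (y axis, log scale) of Cyp7b1, Abcg2, Slco1a1 and Cyp8b1 in each liver, males left of females within each genotype, with a line at the mean of 3 livers. Males lie above females without overlap in both genotypes for Cyp7b1, Abcg2 and Slco1a1, and for Cyp8b1 in Apoe-/- livers.

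Slco1a1 was also higher in males without overlap in both genotypes, with log2 differences of 3.37 ± 0.66 in Apoe-/-AhR-/- livers (adjusted p = 0.0637) and 2.88 ± 0.64 in Apoe-/- livers (adjusted p = 0.11), neither past the threshold by edgeR. Both passed by DESeq2 (adjusted p = 1.04e-05 and 0.000493) and with scaling by library totals alone (adjusted p = 0.00767 and 0.0151), and that in Apoe-/- livers passed by limma on the deposited values (adjusted p = 0.0339) and without replicate 2 of the Apoe-/-AhR-/- males (adjusted p = 0.0382). The sexes overlapped for Cyp8b1 in Apoe-/-AhR-/- livers, with a difference of 0.61 ± 0.46. In Apoe-/- livers Cyp8b1 was at 75.6 to 104.3 CPM in males against 18.4 to 35.3 CPM in females, a difference of 1.69 ± 0.47 (adjusted p = 0.313), which passed by DESeq2 (adjusted p = 0.0451) and with scaling by library totals alone (2.04, adjusted p = 0.0479). The ratio of Cyp8b1 to Cyp7a1 counts was 0.611, 1.60 and 0.789 in Apoe-/-AhR-/- males and 0.236, 0.465 and 0.554 in Apoe-/-AhR-/- females. It was 1.21, 1.29 and 1.29 in Apoe-/- males and 0.338, 0.280 and 0.373 in Apoe-/- females. In both genotypes every male ratio lay above every female ratio. Cyp46a1 went the other way in Apoe-/-AhR-/- livers, where the 3 males lay below the 3 females, with a male minus female difference of -1.66 ± 0.38 (adjusted p = 0.127). That difference passed the threshold with both libraries that held neural transcripts left out, at -1.67 (adjusted p = 0.0462), and by DESeq2 (adjusted p = 0.00657). In Apoe-/- livers its sexes overlapped and the difference was -0.61 ± 0.35.

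A second list held 40 other genes of bile acid metabolism, from hydroxylases of secondary bile acids to sulfation, and 35 of them were tested. This list too was chosen with earlier results of these data known. Of the 35, 0 rose and 2 fell in the averaged comparison, where 1.06% of all tested genes were called and 0.528% were called as lower. The median log2 difference was -0.21 against 0.04 over all genes. The 2 that fell were Sult2a1 and Sult2a8, sulfotransferases of steroids and bile acids. Sult2a8 had 20.9, 143 and 20.9 CPM in Apoe-/-AhR-/- males, against 214.9, 218 and 192 CPM in Apoe-/- males. It had 6.98, 2.10 and 11.8 CPM in Apoe-/-AhR-/- females, against 80.3, 86.0 and 113 CPM in Apoe-/- females, and its difference was -2.75 ± 0.52 (adjusted p = 0.0275). Sult2a1 was at 1.47, 0.842 and 1.05 CPM in Apoe-/-AhR-/- females, against 41.4, 36 and 25.9 CPM in Apoe-/- females. In males it was at 0.0394, 0.0775 and 0.158 CPM in Apoe-/-AhR-/- and at 0, 0.310 and 0.319 CPM in Apoe-/- livers, so its averaged difference of -3.06 ± 0.47 (adjusted p = 0.0144) was carried by the females. The Sult2a genes are near copies of each other, and their separate counts are uncertain.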

How the data were processed

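Total RNA of 12 livers was sequenced after a standard Illumina library protocol, with an average RNA integrity number of 7.0 per the labels' protocols. The authors deposited raw whole-number counts per gene, and also values that DESeq2 had variance-stabilised, on about a log2 scale, per the file headers. The submitters' processing notes name FastQC 0.11.8, Trim Galore 0.6.5, STAR 2.7.8, DESeq2 1.28.1 and build GRCm38. The counting tool, the strand used and the gene annotation are each not given in the sources used here.

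The counts were analysed in R 4.3.3 with edgeR 4.0.16: filterByExpr by group, TMM scaling, and a robust quasi-likelihood fit of 4 group means over 12 libraries with 8 residual degrees of freedom. The 6 contrasts were two-sided, with Benjamini-Hochberg adjustment over 13641 genes and a threshold of 0.05. CPM are TMM-scaled. Alternatives were other scalings and filters, DESeq2 1.42.0, limma 3.58.1, and leaving out libraries. Gene positions come from GENCODE M21, promoters from RefSeq.

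The members and lists were chosen with earlier results of these data known. Values in every library are given for each member called in any contrast or without overlap in both sexes, and for 7 members set by role. Values of some other members were chosen for the text after they were seen. Replicates are numbered in accession order, which pairs nothing. Each label gives 1 liver, and nothing more is said of separate animals, so that a p-value reflects the variation among these samples only, which may be technical. Replicate pairs differed beyond sampling noise, with a chi-square per degree of freedom of 22.1 or more.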

Additional observations from a re-analysis of the deposited data

How the results depend on the processing

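No paired analysis was possible because the labels give no replicate numbers shared between groups. In the averaged comparison the 3 called bile acid genes were called with RLE factors, TMM without mitochondrial genes, no low-count filter, a filter of at least 1 CPM in at least 6 libraries, limma-voom and limma on the authors' variance-stabilised values. Library totals alone also gave 3, but of these Cyp46a1 was the only one shared. DESeq2 gave 6, adding Slco1a1, Nr0b2 and Klb, and leaving out 1 library gave 1 to 6. In females DESeq2 gave 3 against 0, omission of the 2 libraries with neural transcripts (chosen after seeing the data) gave 1, and leaving out 1 library gave 0 to 1. In males leaving out 1 library gave 0 to 1, and for the interaction 0 to 0. Between sexes in Apoe-/-AhR-/- livers the count of 1 became 2 with library totals alone, 5 with DESeq2, 3 without those 2 libraries and 1 to 2 leaving out 1 library. In Apoe-/- livers the count of 2 became 4 with DESeq2, 0 to 3 leaving out 1 library, and 3 both with limma on the deposited values and with library totals alone, where Abcg2 lost its call and Cyp8b1 and Slco1a1 gained one.

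Signs of the averaged difference turned for 9 of the 34 genes with library totals alone, 4 without the 2 libraries, 3 with limma-voom and 3 with limma on the deposited values. They turned for 0 with RLE factors, TMM without mitochondrial genes, the other filters or DESeq2. None of the genes that turned had a call in the averaged comparison, though Abcg2 had one between the sexes. Of the genes given in every library, with library totals alone Cyp7a1 was 0.395, Cyp8b1 0.182 and Abcg2 0.198. Abcb11 was -0.0137 without the 2 libraries. Leaving out 1 library gave -0.529 to 0.0587 for Cyp7a1 and -0.0585 to 0.113 for Abcb11. Over all genes the 144 calls (72 higher, 72 lower) became 1053 with library totals alone (986 higher, 67 lower), 584 with DESeq2 (270 and 314), 432 without the 2 libraries (207 and 225) and 6 to 663 leaving out 1 library. The split was 32 and 82 with limma-voom and 60 and 94 with limma on the deposited values. The 5 calls in males became 86 and the 22 in females 448 with DESeq2. The cause was not tested. Slc51b, at 0 to 37 counts per library, and Cyp39a1, at 5 to 69, are among the genes that rest on few counts.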
